A study of Homo sapiens with 8 samples.

Results

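Fused organoids, 3-D neural cultures in which organoids are grown together until they join, were compared with 2-D co-cultures of the same experiment. The cells derive from H1, a long-established line of human embryonic stem cells, and were profiled by split-pool single-cell RNA sequencing in 8 sublibraries. The members were the cells whose names begin with 3DFusi (9765 cells under 10 culture tags) or 2DCocu (10414 cells under 12 tags), together 20179 of the 43693 cells and 22 of the 46 tags deposited. The series was designed to describe the makeup of such cultures and their responses to dopamine, cocaine and morphine. The second part of each tag reads AcCoc, AcMor or Vehic and is taken here as cocaine, morphine or vehicle, since the labels list cocaine, morphine, dopamine and untreated cultures without spelling out the tags. The fused organoids had 4 AcCoc, 3 AcMor and 3 Vehic tags, and the 2-D co-cultures had 4 tags of each. No genetic difference between the groups is given, and the labels state no culture age, dose or exposure time. Organoids were cut up, a few at a time, and brought into suspension with papain. How the 2-D cultures were dissociated is not stated in the labels. The tags compared name neither a differentiation protocol nor the regions that were fused. Growth format, protocol and handling therefore cannot be told apart in any result below. The labels also do not say whether numbered tags are separate cultures, so the p-values measure the spread between tags, which may be technical.

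Fusing organoids of different regional character lets neurons born in one region migrate into and contact the other, and is used to combine the inhibitory neurons of the ventral forebrain, made from progenitors that express DLX transcription factors, with the glutamatergic neurons of the dorsal forebrain. Cells in a flat co-culture instead adhere to a coated surface, largely through integrins and the focal adhesions behind them. Immediate early genes, such as FOS and EGR1, are transcribed within minutes of synaptic activity, growth factors or stress and need no new protein for it.

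Each tag held 410 to 1634 cells and 4479874 to 37914698 counts in the fused organoids, and 473 to 1378 cells and 5759439 to 20104217 counts in the 2-D co-cultures. The median cell had 13663 counts and 4780 genes in the fused organoids against 10513 counts and 4106 genes in the 2-D co-cultures. Mitochondrial counts made up a median of 3.13% and 2.25% of a cell's total. The 20179 cells carried 19087 distinct barcodes, of which 1053 occurred in more than 1 sublibrary, as split-pool barcoding allows. That 0 carried more than 1 tag is no check, because each of the 24 values of the barcode's last part went with 1 tag. The fused organoid tag AcCoc replicate 3 stood apart, with 41.1% mesenchymal-gated cells, 23.9% neuron-gated cells and the highest median mitochondrial share (5.05%).

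Cell classes were set by gates: a cell was counted where at least 3 of 8 marker genes had a count after every cell was thinned to 3000 counts. Both arrangements held many neurons, with 41.6% ± 9.55 (SD, n = 10 tags) of fused organoid cells and 34.9% ± 12.3 (SD, n = 12) of 2-D cells in the neuron gate (STMN2, DCX, SYT1, SNAP25, NSG2, ELAVL4, INA, GAP43), a difference that did not pass an exact permutation test within treatments (two-sided, adjusted p = 0.140 over 8 shares). Without AcCoc replicate 3 the fused organoid share was 43.6% ± 7.69 (SD, n = 9) and the difference passed (exact permutation test, adjusted p = 0.0128). The difference lay in the Vehic tags, where the mean shares were 41.0% in fused organoids and 19.2% in 2-D co-cultures. They were 42.1% and 44.2% in AcCoc tags and 41.6% and 41.2% in AcMor tags. Cells of the mesenchymal gate (collagens, DCN, LUM, PDGFRA, TWIST1) made up 4.15% to 41.1% of fused organoid tags, median 13.5%, and 2.56% to 10.2% of 2-D tags, median 5.06% (exact permutation test, adjusted p = 0.00812). Without thinning the mesenchymal difference was no longer called (exact permutation test, adjusted p = 0.142), while without AcCoc replicate 3 it was 12.3% against 6.15% and still called (exact permutation test, adjusted p = 0.0114). Motile cilium cells (FOXJ1 and axonemal dyneins) made up 5.30% ± 2.36 and 9.72% ± 3.61 (exact permutation test over 10 and 12 tags, adjusted p = 0.00247), a call that was lost at a gate of 4 genes (adjusted p = 0.442). Choroid plexus cells were rare in both, at 27 cells of 9765 and 1 cell of 10414. Cells of the cycling gate (MKI67, TOP2A and others) ranged from 2.85% to 22.8% of fused organoid tags and from 4.91% to 9.96% of 2-D tags, and the difference was not called (exact permutation test, adjusted p = 0.336). A share of cells does not tell a change in one class from the opposite change in the rest.

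**Figure D1:**
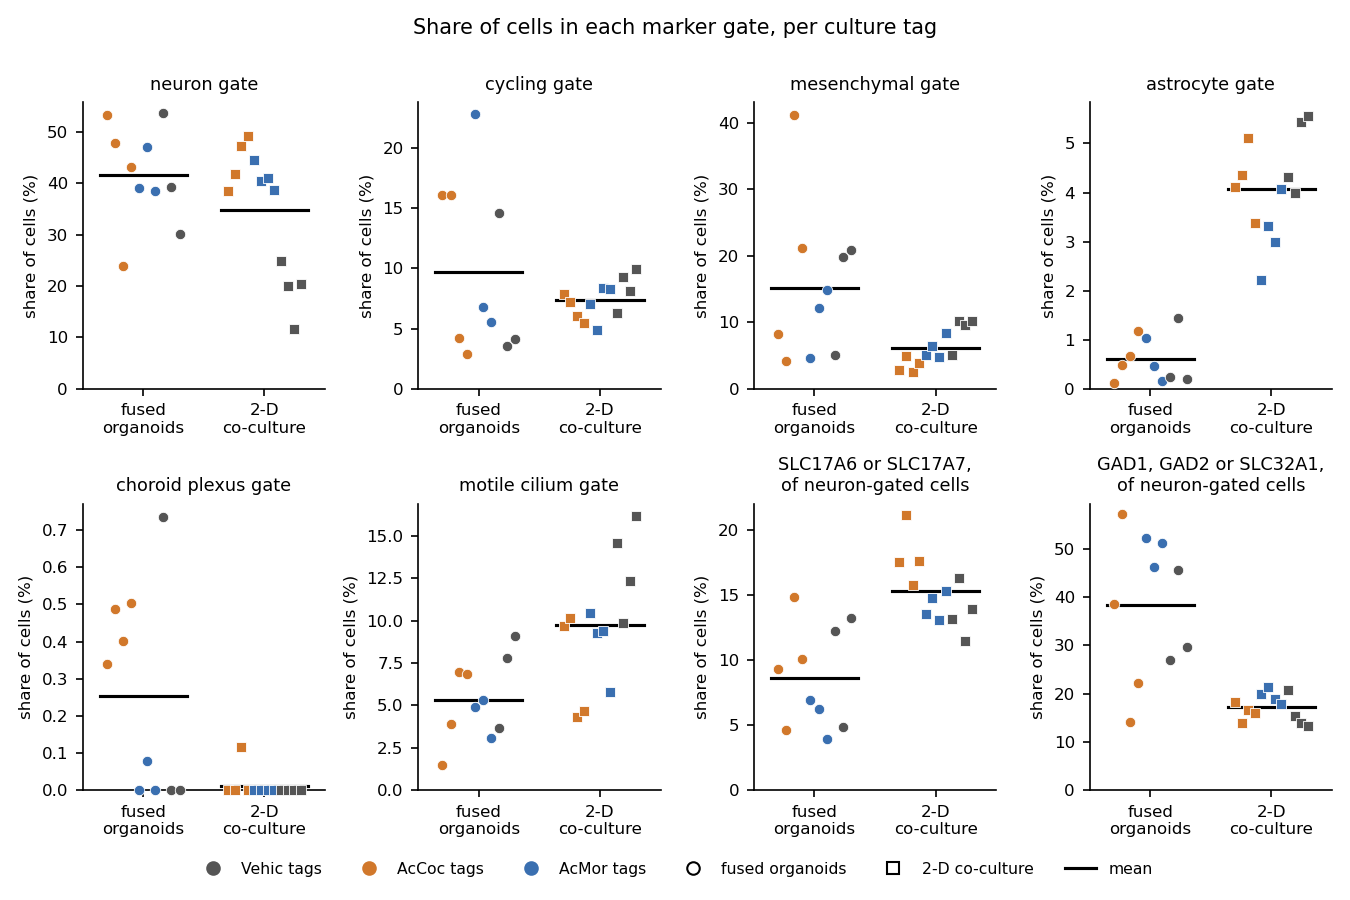
Share of cells in each marker gate, in percent, for every culture tag: 10 fused organoid tags (circles) and 12 2-D co-culture tags (squares), coloured by the treatment part of the tag, with the mean of each arrangement as a bar. The neuron and cycling shares overlap widely, and the 41.1% mesenchymal tag is AcCoc replicate 3.

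Among neuron-gated cells, 38.4% ± 14.5 (SD, n = 10) had a count of GAD1, GAD2 or SLC32A1, the enzymes and vesicular transporter of GABA, in fused organoids, against 17.1% ± 2.78 (SD, n = 12) in 2-D co-cultures (exact permutation test, adjusted p = 0.000187). The vesicular glutamate transporters SLC17A6 or SLC17A7 went the other way, at 8.62% ± 3.89 and 15.3% ± 2.62 (exact permutation test over 10 and 12 tags, adjusted p = 0.000187). The inhibitory share of fused organoid tags ran from 14.0% to 57.1% with a median of 42.0%, while that of 2-D tags stayed between 13.3% and 21.3%. The lowest fused organoid tag, again AcCoc replicate 3, lay within the 2-D range, and without it the inhibitory share was 41.1% ± 12.4 (SD, n = 9; exact permutation test, adjusted p = 9.33e-05). As a background level, 3.66% of mesenchymal-gated cells outside the neuron gate in fused organoids (54 of 1476, exact 95% interval 2.76% to 4.75%, median 13724 counts) and 2.97% of such cells in 2-D co-cultures (19 of 639, interval 1.80% to 4.60%, median 15088 counts) had such a count, where neuron-gated cells had a median of 12888 and 9767 counts. Intervals of this kind cover counting error only. For SLC17A6 or SLC17A7 the background was 0.474% (7 of 1476 cells) in fused organoids and 0.313% (2 of 639) in 2-D co-cultures. Without thinning the inhibitory shares were 52.0% and 26.9%, the glutamatergic ones 21.2% and 29.8%, and the shares of all cells 63.2% and 54.2% (neuron), 18.1% and 12.1% (cycling), 22.7% and 15.8% (mesenchymal), 20.1% and 32.7% (motile cilium) and 10.2% and 23.2% (astrocyte).

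Counts summed over all cells of a tag were tested gene by gene by edgeR's quasi-likelihood test with the treatment part of the tag as covariate and Benjamini-Hochberg adjustment over 22511 genes. Of these, 10987 (48.8%) passed an adjusted p of 0.05, 5878 (26.1%) higher and 5109 (22.7%) lower in fused organoids, and the median log2 fold change of all genes was 0.04. Of the calls 53.5% were higher, and with library size alone as the scaling 63.6% were. Counts of called members are read against these shares, and those under another setting against all genes of that setting. With counts summed by tag number 3525 of 26114 genes were higher and 3992 lower. With the tag number as a block (limma) 4409 of 22511 were higher and 4767 lower. In Vehic tags alone 3014 of 21408 were higher and 3005 lower. In AcCoc tags alone the numbers were 989 and 1157 of 20606, and in AcMor tags alone 1853 and 2306 of 21676. The tags of the arrangements did not overlap for 1450 called genes (6.44%). Levels are given as CPM (counts scaled by a tag's total), and fold changes as log2 of fused organoids over 2-D co-cultures. In summed tags, fewer cells of a type and less RNA per cell cannot be told apart, so the test was repeated in neuron-gated cells (7954 of 16797 genes called, 47.4%, with 25.8% higher and 21.6% lower), in neuron-gated cells with glutamate transporter counts and no inhibitory marker (3541 of 10817, 32.7%, with 17% higher and 15.8% lower), and in cells with at most 1 neuron gate gene, a set added after the data had been seen (9116 of 19945, 45.7%, with 23.7% higher and 22% lower). Neuron gate genes are not counted within gated cells.

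Short genes had higher fold changes than long ones in every set of cells. Genes spanning up to 10 kb had a median log2 fold change of 0.26 over all cells (36.1% higher and 11% lower) and those over 300 kb one of -0.21 (17.3% higher and 42.9% lower). In neuron-gated cells the medians were 0.48 and -0.26. Many immediate early, heat shock and mitochondrial genes are short and many receptor subunit genes are long, though spans were not counted by list. The part of gene length in the results on them was not tested.

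Immediate early genes were higher in fused organoids as a group. Of 24 tested, 17 rose and 1 fell (26.1% and 22.7% of all genes), with a median log2 fold change of 1.42, and in 12 of the 17 every fused organoid tag lay above every 2-D tag. FOS, a subunit of the AP-1 transcription factor, was at 90.9 to 275 CPM with a median of 122 in fused organoids and at 8.60 to 21.3 CPM with a median of 15.6 in 2-D co-cultures. The lowest fused organoid tag lay well above the highest 2-D tag. Its log2 fold change was 2.99 ± 0.16 (SE; edgeR adjusted p = 9.48e-13), and by treatment the log2 fold change was 2.79 in Vehic, 3.12 in AcCoc and 3.04 in AcMor tags. FOSB, its paralog, had a median of 31.7 CPM against 3.66 CPM (log2 fold change 3.50 ± 0.36, edgeR adjusted p = 4.24e-08). EGR1, a zinc-finger factor, was at 132 to 288 CPM in fused organoids and 49.3 to 91.5 CPM in 2-D tags (1.44 ± 0.13 on the log2 scale, edgeR adjusted p = 7.19e-09). The AP-1 subunits JUN (2.05) and JUND (1.97), the nuclear receptor NR4A1 (2.27), EGR3 (2.02), the mRNA decay factor ZFP36 (2.10), IER2 (1.40) and the MAP kinase phosphatase DUSP1 (1.27) rose by these log2 fold changes with no overlap between tags. NPAS4, which in neurons responds to calcium entry, rose by 1.97 on the log2 scale, with tags that overlapped. FOSL1, another AP-1 subunit, fell by 0.98 on the log2 scale, from 4.96 ± 1.69 to 2.66 ± 1.48 CPM (SD over 12 and 10 tags; edgeR adjusted p = 0.00262), and was not called within any 1 treatment alone. BTG2 (-0.06), FOSL2 (-0.15) and IER3 (-0.31) were among the 6 members that did not pass.

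Most members also rose in each of the other sets of cells. In neuron-gated cells 13 of 18 members rose and 0 fell (25.8% and 21.6% of all genes there), with FOS at 48.2 to 95.3 CPM against 4.01 to 13.3 CPM. In glutamatergic neurons 8 of 9 rose and 0 fell (17% and 15.8% of all genes), FOS by 3.59 ± 0.30. In cells with at most 1 neuron gate gene 18 of 24 rose and 1 fell (23.7% and 22% of all genes), and EGR3 had a larger log2 fold change there (3.00 ± 0.22) than in neuron-gated cells (1.03 ± 0.25), though that difference was not tested.

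**Figure D2:**
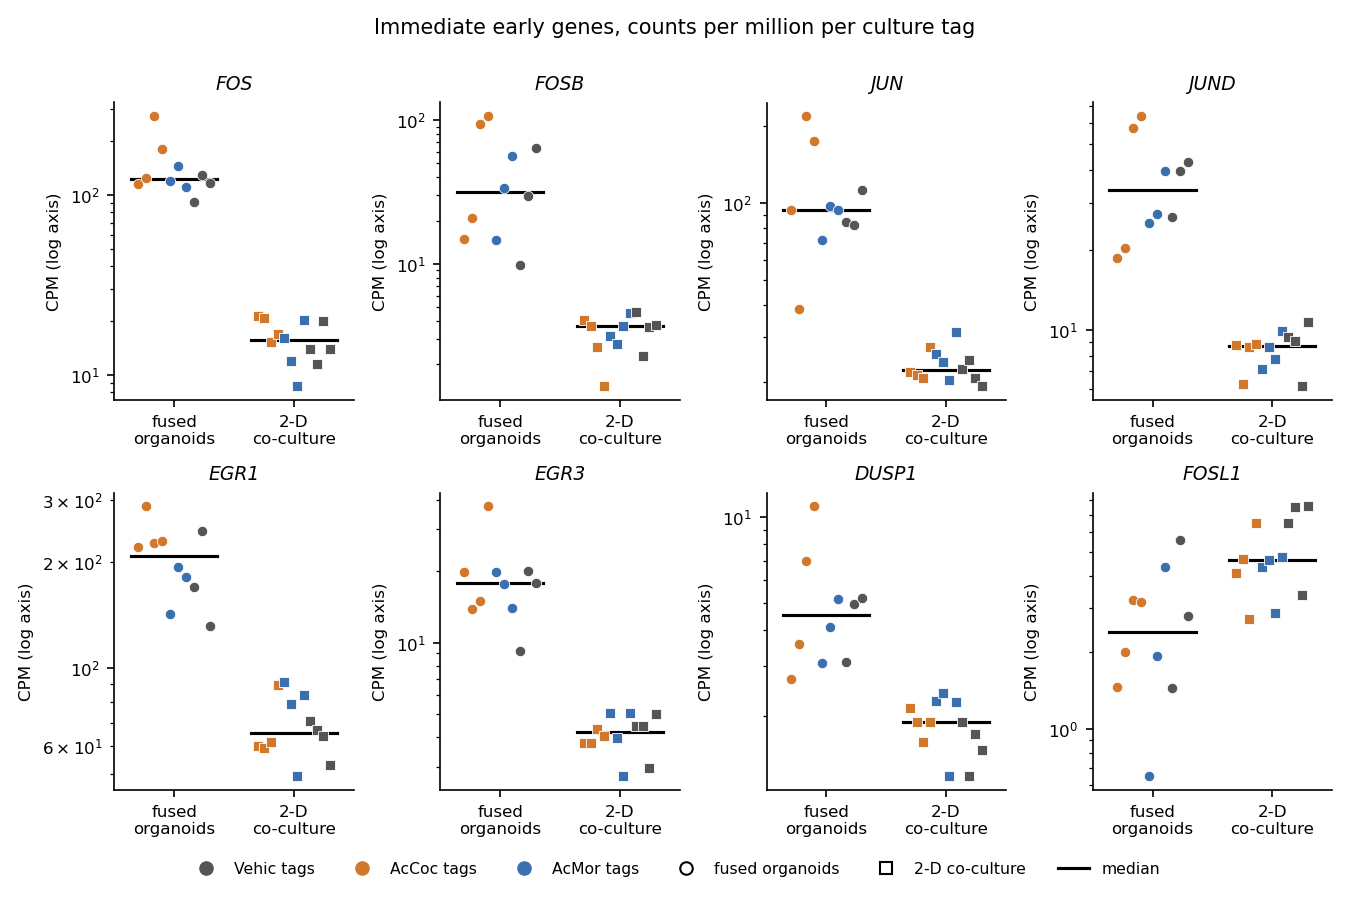
Levels of 8 immediate early genes in every culture tag, in CPM on a log axis: fused organoid tags as circles, 2-D co-culture tags as squares, coloured by treatment, with the median of each arrangement as a bar. FOS runs from 90.9 to 275 CPM in fused organoids and from 8.60 to 21.3 CPM in 2-D co-cultures, and FOSL1 is the member that lies lower in fused organoids.

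Promoters of 20 of the listed genes, 25 windows in all, were found in RefSeq (GRCh38.p14, from 250 bases before to 50 after each start). The cyclic AMP response element, TGACGTCA on either strand, was in the windows of 2 genes, DUSP1 and JUND, 8.0% of the 25 windows against 1.8% of all 35116 promoter windows of that length. The CArG box, the binding sequence of serum response factor, was in those of EGR1 and EGR2, 8.0% against 1.3%. Those of EGR1, DUSP1 and JUND are shown, because they carry the exact elements and belong to genes whose tags did not overlap. Capitals mark the motif. They lie at chr5:138465229-138465528 (plus strand, EGR1), chr5:172771146-172771445 (minus strand, DUSP1) and chr19:18281573-18281872 (minus strand, JUND). EGR1 holds 2 CArG boxes. A match describes the sequence and is not a measured site.
EGR1: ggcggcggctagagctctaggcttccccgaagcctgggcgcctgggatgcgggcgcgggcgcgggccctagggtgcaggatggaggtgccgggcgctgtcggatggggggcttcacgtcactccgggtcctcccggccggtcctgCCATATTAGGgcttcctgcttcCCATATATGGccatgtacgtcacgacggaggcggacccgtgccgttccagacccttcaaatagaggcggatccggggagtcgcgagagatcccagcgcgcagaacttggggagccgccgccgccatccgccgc
DUSP1: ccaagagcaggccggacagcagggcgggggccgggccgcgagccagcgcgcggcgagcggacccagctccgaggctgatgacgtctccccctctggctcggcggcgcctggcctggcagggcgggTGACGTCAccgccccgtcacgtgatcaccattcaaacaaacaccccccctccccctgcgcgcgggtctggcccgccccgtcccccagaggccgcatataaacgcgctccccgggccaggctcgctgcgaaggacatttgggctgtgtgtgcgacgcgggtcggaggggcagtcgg
JUND: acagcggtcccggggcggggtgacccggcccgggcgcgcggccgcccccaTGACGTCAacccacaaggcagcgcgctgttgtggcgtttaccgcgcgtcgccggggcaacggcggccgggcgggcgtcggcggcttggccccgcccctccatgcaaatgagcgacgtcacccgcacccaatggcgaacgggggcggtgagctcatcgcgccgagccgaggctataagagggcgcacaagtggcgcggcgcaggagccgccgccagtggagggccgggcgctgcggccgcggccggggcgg

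Of 12 heat shock chaperones 8 rose and 0 fell, median 0.78. The number that rose was 3 of 12 with counts summed by tag number, where 3525 of all 26114 genes rose. It was 2 of 12 in AcCoc tags alone, where 989 of all 20606 genes rose. The medians were 0.64 and 0.69. HSP90AB1, a cytosolic HSP90, had a median of 150 CPM in fused organoids (75.7 to 245) and 61.2 CPM in 2-D co-cultures (40.5 to 81.3), a log2 fold change of 1.33 ± 0.15 (edgeR adjusted p = 1.82e-07). DNAJA1 (1.48) and HSPA8 (1.14) rose too, while HSPA1B (-0.13) and HSPH1 (0.34) did not pass. Some chaperones of the endoplasmic reticulum were lower. HSP90B1 fell by 1.04 on the log2 scale, from 512 ± 83.6 to 270 ± 101 CPM (edgeR adjusted p = 5.97e-06), HSPA5 by 0.72 and PDIA4 by 0.96. CALR (-0.56) and CANX (-0.52) were called as lower too, though neither with counts summed by tag number (edgeR adjusted p = 0.0816 and 0.0561) or in AcCoc tags alone. CANX was not called in Vehic or AcMor tags alone either, nor was CALR with library size alone as the scaling or with no filter on low counts. The call of CALR was also lost without any 1 of 5 tags, 2-D AcMor replicate 4 or Vehic replicate 3 and fused organoid AcMor replicate 1, AcMor replicate 3 or Vehic replicate 4 (edgeR adjusted p from 0.0517 to 0.0650). The transcription factor ATF4, which directs the integrated stress response, rose by 1.13 ± 0.20. Of the 19 genes of the unfolded protein and integrated stress responses, 7 rose and 6 fell, against 4 and 4 with counts summed by tag number and 2 and 0 in AcCoc tags alone, where HSP90B1, HSPA5 and PDIA4 were not called. In neuron-gated cells HSPA5 (0.25, edgeR adjusted p = 0.338) and HSP90B1 (-0.31, edgeR adjusted p = 0.124) did not pass.

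Genes of GABAergic identity were the group with the largest rise among the neuronal lists: 12 of 15 rose and 2 fell, with a median log2 fold change of 1.89, and 11 of 12 tested rose in neuron-gated cells (median 1.90). The homeobox factor DLX1 was at 6.84 to 58.5 CPM in fused organoids, median 30.7, and at 0.582 to 2.80 CPM in 2-D co-cultures, median 1.60. No tag overlapped, and the log2 fold change was 3.94 ± 0.32 (edgeR adjusted p = 1.19e-09). DLX2 (3.69) and DLX5 (3.50) rose likewise. DLX6-AS1, a noncoding RNA antisense to DLX6, reached a median of 459 CPM against 19.3 CPM (4.32 ± 0.34, edgeR adjusted p = 6.77e-10). Reads of DLX6-AS1 and DLX6 may not be separable if strand was not used in counting. DLX1 was at 1.03 to 53.8 CPM in the 12 other 3-D tags and 0.921 to 44.9 CPM in the 12 other 2-D tags. DLX6-AS1 was at 19.7 to 1016 and 15.4 to 688.5 CPM in these tags, so such levels were not particular to fused organoids. GAD1 rose by 1.55 ± 0.26, although its lowest fused organoid tag (16.8 CPM) lay among the 2-D tags (16.2 to 42.4 CPM). ERBB4, a neuregulin receptor of interneurons, was instead lower in every fused organoid tag (220 to 680 CPM against 1021 to 1813 CPM), a fall of 1.75 on the log2 scale.

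Some genes of glycine transmission, SLC6A5 and GLRA2, were higher in the 2-D co-cultures. SLC6A5, the neuronal glycine transporter that marks glycinergic neurons, was at 10.1 to 48.0 CPM there and 0.280 to 6.77 CPM in fused organoids (fell by 4.50 on the log2 scale, SE 0.40). The glycine receptor subunit GLRA2 fell by 1.88 ± 0.23 and, in glutamatergic neurons, from 288 ± 73.1 to 31.5 ± 7.98 CPM (SD over 11 and 10 tags; log2 fold change -3.21, edgeR adjusted p = 5.52e-14). PAX2 is a factor of glycinergic and midbrain-hindbrain cells. Among genes with at least 20 CPM in some group, it had the lowest p for a fold change that depends on treatment. Its log2 fold change was 0.04 in Vehic, -3.86 in AcCoc and -1.96 in AcMor tags. The dependence did not pass (edgeR quasi-likelihood interaction test, adjusted p = 0.122).

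Glutamatergic identity genes were mostly not called over all cells, where 2 of 15 rose and 1 fell, with a median of -0.21. TLE4, a corepressor of deep-layer cortical neurons, rose from 120 to 172 CPM in 2-D tags to 193 to 389 CPM (0.88 ± 0.11), and SLC17A6 fell by 0.76 ± 0.24. In Vehic tags alone SLC17A6 had a log2 fold change of 0.20, and it was called neither there nor in AcCoc tags alone. The cortical factors TBR1 (-0.32) and BCL11B (-0.01) did not pass. In neuron-gated cells 2 of 15 rose and 6 fell, in glutamatergic neurons 4 of 11 rose and 1 fell, and in cells with at most 1 neuron gate gene 3 of 14 rose and 1 fell. Of 16 pan-neuronal genes 9 rose and 3 fell, against 11 and 0 in Vehic tags alone, 2 and 1 in AcCoc tags alone and 6 and 3 with the tag number as a block (limma). The neurofilament genes NEFM (2.18) and INA (2.05) rose, while RBFOX3, which encodes NeuN, a nuclear protein of mature neurons, fell by 0.61 over all cells (not called in Vehic or AcCoc tags alone) and by 0.95 ± 0.09 in neuron-gated cells, where its tags did not overlap (208 to 355 CPM against 372 to 626 CPM).

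**Figure D3:**
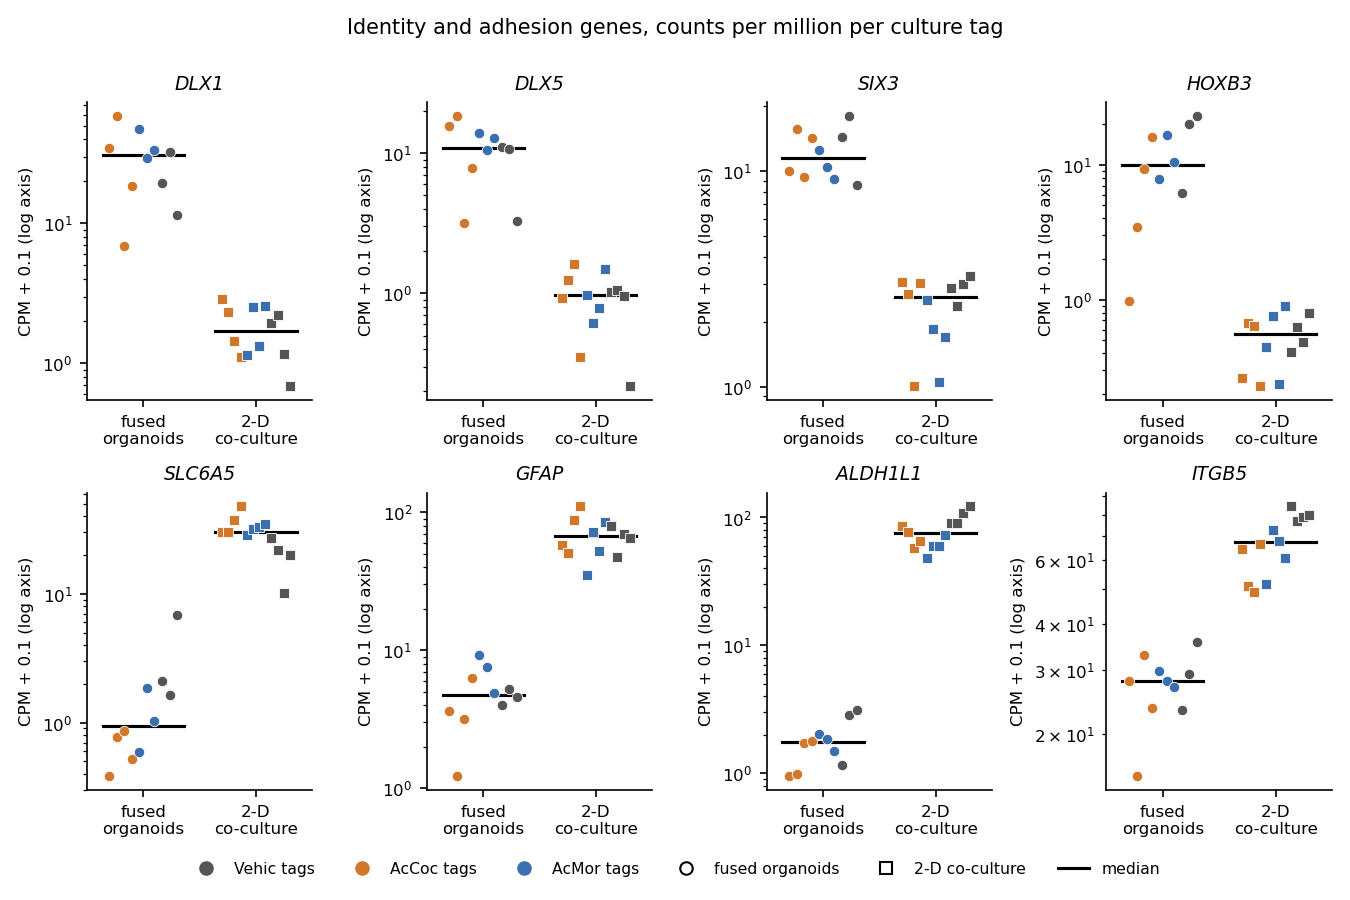
Levels of 8 genes of regional, inhibitory, glial and adhesion identity in every culture tag, in CPM on a log axis (0.1 CPM was added to every value for plotting), with symbols as in the plot of immediate early genes. DLX1, DLX5, SIX3 and HOXB3 lie higher in fused organoids, and SLC6A5, GFAP, ALDH1L1 and ITGB5 lower.

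Of the astrocyte genes, ALDH1L1, GFAP and NFIA were lower in every fused organoid tag than in any 2-D tag. ALDH1L1, a folate enzyme used as an astrocyte marker (chr3:126103562-126197994, minus strand, GRCh38, GENCODE annotation), was at 47.8 to 123 CPM in 2-D co-cultures and 0.844 to 3.05 CPM in fused organoids, a fall of 5.63 on the log2 scale (SE 0.18, edgeR adjusted p = 9.72e-17). GFAP, the intermediate filament of astrocytes (chr17:44903161-44916937, minus strand, GRCh38), was at 34.7 to 111 and 1.12 to 9.15 CPM (fell by 3.89, SE 0.25). NFIA, a factor that starts gliogenesis and is also expressed in neurons, fell by 0.90 ± 0.14, with 832 to 1736 CPM against 2002 to 2736 CPM. Of 16 astrocyte genes tested 2 rose and 5 fell, and the median was 0.12. NFIB (-0.73) and CHI3L1 (-1.12, at a mean of 0.734 CPM in 2-D co-cultures and 0.337 CPM in fused organoids) were the other members that fell. The glutamate transporters SLC1A2 (0.07) and SLC1A3 (0.21), the connexin GJA1 (0.33), CLU (0.18) and APOE (0.33) did not pass, while SOX9 rose by 0.72. The share of the astrocyte gate was 0.598% ± 0.471 (SD, n = 10) and 4.07% ± 1.00 (SD, n = 12) with all 8 genes (exact permutation test, adjusted p = 9.33e-05, with the unadjusted p at the smallest the test can give). With GFAP and ALDH1L1 left out, a choice made after the data had been seen, it was 0.437% and 0.198% and no longer called (exact permutation test, adjusted p = 0.0823), with the direction reversed.

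Of 8 oligodendrocyte lineage genes 5 rose and 1 fell, but 2 rose and 1 fell with the tag number as a block (limma) or with counts summed by tag number. PDGFRA, the receptor of oligodendrocyte progenitors and of mesenchymal cells, was at 17.0 to 78.6 CPM in fused organoids and 1.14 to 3.18 CPM in 2-D co-cultures (3.92 ± 0.24, edgeR adjusted p = 2.02e-11), and NKX2-2 had a median of 1.71 CPM against 0 CPM. SOX10, which defines the lineage, did not pass (-0.21), and MBP, a myelin protein, fell by 1.17 ± 0.15. The mesenchymal-gated cells were more frequent in the same tags, and their part in the PDGFRA result was not tested.

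Regional patterning genes changed in both directions (9 higher and 7 lower of 23). The numbers were 7 and 5 with the tag number as a block (limma), 6 and 6 of 22 with counts summed by tag number, and 7 and 2 of 22 in Vehic tags alone. HOXB3, a hindbrain factor, was at 0.872 to 22.8 CPM in fused organoids and 0.127 to 0.796 CPM in 2-D co-cultures (4.43 ± 0.40, edgeR adjusted p = 6.07e-09). HOXB-AS3, an antisense transcript that overlaps it (chr17:48549630-48606414, plus strand, against chr17:48548870-48604912 for HOXB3, minus strand, GRCh38), had the largest rise of the genes named by the selection rule, at 1.97 to 71.0 CPM against 0.127 to 0.696 CPM (6.39 ± 0.46). Without strand the pair cannot be separated. HOXB-AS3 was at 0 to 145 CPM in the 12 other 3-D tags and 0.0177 to 0.812 CPM in the 12 other 2-D tags. HOXA3 rose by 4.26, whereas its neighbour HOXA2 fell by 1.83 ± 0.31 (not called in Vehic tags alone). SIX3, a factor of the anterior forebrain, rose as well, with 8.49 to 17.9 CPM against 0.901 to 3.14 CPM (2.35 ± 0.18), and by 4.32 ± 0.29 in neuron-gated cells. The midbrain factors EN1 (3.17) and EN2 (1.56) rose from low levels. TH, an enzyme of dopamine synthesis, rose by 3.69 to a mean of 1.29 CPM. The call of TH was lost with the tag number as a block (2.18, limma adjusted p = 0.102). The channel gene KCNJ6, a member of the midbrain dopaminergic list, fell by 2.33, with no overlap of tags (17.6 to 38.3 CPM against 68.3 to 213 CPM). It also fell in glutamatergic neurons, from a mean of 279 to 67.6 CPM (log2 fold change -2.11, edgeR adjusted p = 1.61e-05). Of 12 midbrain dopaminergic genes 8 rose and 2 fell, and with counts summed by tag number 4 of 13 rose and 2 fell. OTX2 (-0.38) and PAX6 (-0.27) did not pass.

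Of 25 genes of integrins, focal adhesions and actomyosin, 1 rose, 12 fell and 12 were not called (median -0.39). Of all genes 26.1% rose and 22.7% fell. Of the 12 that fell 5 had no overlap of tags, and of all genes 6.44% were called without overlap. In AcCoc tags alone 1 rose and 5 fell, where 989 of all 20606 genes rose and 1157 fell. The median was 0.03 there, against -0.84 in Vehic and -0.46 in AcMor tags. ITGB5, a vitronectin receptor subunit, was at 15.2 to 35.7 CPM against 48.9 to 84.5 CPM (fell by 1.36, SE 0.11, edgeR adjusted p = 1.22e-09). ITGB3 fell by 2.05, ITGA2 by 1.45, the actin crosslinker ACTN1 by 1.48, the myosin MYH9 by 1.29 and the caveolar protein CAV1 by 2.56. ITGB1, the common integrin beta chain, did not pass (-0.07), nor did the talin TLN1 (0.02) or the paxillin PXN (0.04). CCN1, a matricellular protein, was the member that rose (1.33 ± 0.22). In neuron-gated cells 3 rose and 11 fell of 23 (25.8% and 21.6% of all genes there). In cells with at most 1 neuron gate gene 1 rose and 13 fell of 25 (23.7% and 22% of all genes there).

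Of 26 genes of collagens and the basement membrane 6 rose and 10 fell, with a median of -0.41. Within 1 treatment 2 rose and 11 fell in Vehic tags (median -0.54), 3 and 9 in AcMor tags (-0.68) and 4 and 0 in AcCoc tags (0.16), and whether the treatments differ was not tested for the list. The cartilage collagens COL2A1 (4.91 to 449 CPM against 2.19 to 4.50 CPM, log2 fold change 4.86 ± 0.70) and COL9A1 (3.50 ± 0.59) rose, with a wide spread between fused organoid tags. Without Vehic replicate 4 the log2 fold changes were 4.17 and 2.91, and without AcCoc replicate 3 that of COL9A1 was 2.89. With the tag number as a block they were 3.48 and 2.37 (limma). Neither gene was called in Vehic tags alone. Among basement membrane genes NID2, a nidogen, rose by 1.53 ± 0.23, as did NID1 (0.93) and the laminin LAMA4 (0.64, not called with the tag number as a block, limma adjusted p = 0.0719). Others fell, COL4A1 by 1.03 ± 0.15, COL18A1 by 1.19 ± 0.20 and LAMC1 by 0.83, as did fibronectin FN1 (-1.15 ± 0.30). None of these last 4 was called in AcCoc tags alone. COL1A1 (-0.10) did not pass. Mesenchymal-gated cells, which express many of these genes, had a median share of 13.5% and 5.06% in the same tags, and their part in these results was not tested. In neuron-gated cells COL12A1 fell from 110 to 254 CPM to 5.07 to 25.5 CPM (fell by 3.78, SE 0.20), while over all cells it did not pass (-0.37, edgeR adjusted p = 0.397).

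Morphogen pathways were analysed by the role of their members. In the hedgehog pathway 7 of 13 genes rose and 1 fell, and in neuron-gated cells 3 of 11 rose and 3 fell. The ligand SHH rose by 1.46 ± 0.31, though it did not pass with counts summed by tag number (1.05, edgeR adjusted p = 0.107). Its receptor PTCH1, which is also a target of the pathway, was at 134 to 253 CPM against 60.3 to 84.4 CPM (1.11 ± 0.11, edgeR adjusted p = 1.44e-08). The co-receptors split, with GAS1 higher by 1.61, BOC higher by 0.55 and CDON lower by 0.68 (not called with counts summed by tag number, edgeR adjusted p = 0.141). Of the transcription factors GLI2 (0.85) and GLI3 (0.98) rose, neither called in Vehic tags alone nor GLI3 in AcCoc tags alone, and GLI1 (0.25) and the signal transducer SMO (0.07) did not pass. In the WNT pathway 10 of 33 rose and 12 fell. The secreted WNT inhibitor SFRP1 was at 26.6 to 143 CPM against 4.20 to 7.25 CPM (3.49 ± 0.30, edgeR adjusted p = 3.27e-09), and SFRP2 (2.54), the receptor FZD8 (2.60) and the nuclear mediator LEF1 (0.93 ± 0.09) rose without overlap. The WNT-enhancing R-spondin RSPO1 fell by 1.92 ± 0.23. In the BMP and TGF-beta pathway 11 of 25 rose and 5 fell, whereas 5 rose and 6 fell with the tag number as a block (limma). The ligands BMP5 (1.79 ± 0.23) and BMP6 (-1.62 ± 0.19) moved in opposite directions, TGFB2 fell by 1.11, and the inhibitory SMAD7, a target of the pathway, was at 6.42 to 19.1 CPM against 21.7 to 42.4 CPM (fell by 1.59, SE 0.16).

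**Figure D4:**
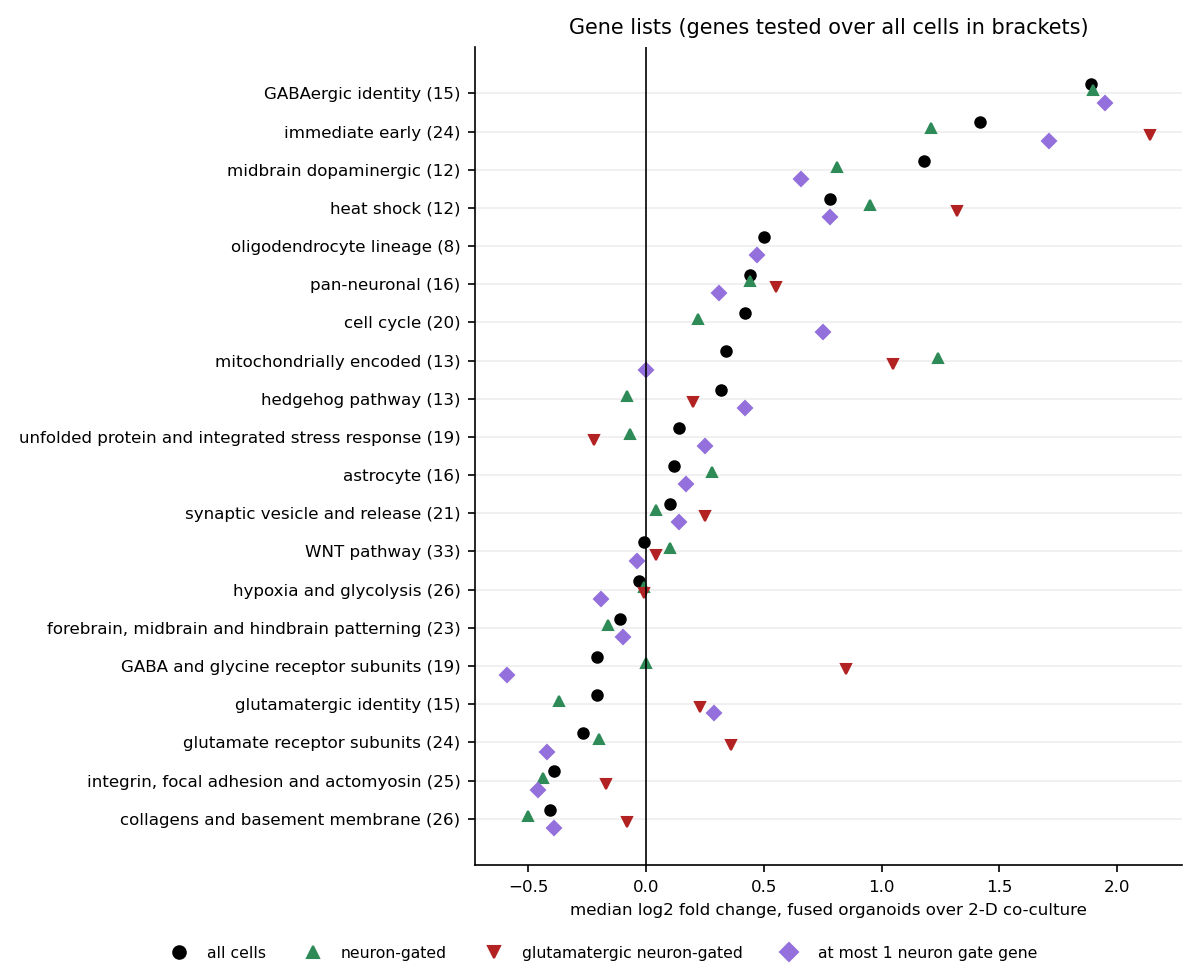
Median log2 fold change (fused organoids over 2-D co-cultures) of 20 gene lists in 4 sets of cells: all cells, neuron-gated cells, glutamatergic neuron-gated cells and cells with at most 1 neuron gate gene, shown for lists with at least 5 genes tested in the set. Mitochondrially encoded genes have a median of 1.24 in neuron-gated cells and 0 in cells with at most 1 neuron gate gene.

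Within neuron-gated cells all 13 mitochondrially encoded genes rose (25.8% of all genes there), with a median log2 fold change of 1.24, and in glutamatergic neurons 12 of 13 did (median 1.05). MT-ND4, a subunit of respiratory complex I, had a median of 616 CPM in fused organoid neurons (222 to 945) and 241 CPM in 2-D neurons (66.3 to 367), a log2 fold change of 1.27 ± 0.25 (edgeR adjusted p = 0.000288). The tags overlapped. In cells with at most 1 neuron gate gene 2 of 13 rose and 3 fell, and MT-ND4 was at 673 ± 217 and 645 ± 140 CPM (SD over 10 and 12 tags; -0.03 on the log2 scale). MT-ND4L and MT-ND4, and MT-ATP8 and MT-ATP6, overlap in the mitochondrial genome and may share reads. Short genes were higher in the same cells, as given above, and whether the difference between neurons and other cells passes a test was not tested. Over all cells 3 of 13 rose (median 0.34), and 6 of 13 in Vehic tags alone (median 0.67). The median mitochondrial share of a cell was 0.968% to 2.17% in 2-D Vehic tags and 2.48% to 3.48% in the other 2-D tags. It was 2.23% to 5.05% in fused organoid tags. The rise in neuron-gated cells was not counted by treatment for this list.

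Further genes were named within neurons, all but HK2 by the selection rule, which takes called genes with at least 20 CPM and tags that did not overlap. Of these, the genes with the largest rise in neuron-gated cells were the neighbouring C-type lectin genes CLEC2A (20.2 to 101 CPM against 0 to 4.56 CPM, log2 fold change 4.72 ± 0.30; chr12:9898673-9932381) and KLRF2 (4.39 ± 0.32; chr12:9881489-9895833, GRCh38). Both are better known from skin and natural killer cells. SEMA3C, a secreted axon guidance cue, was at 434 to 945 CPM in 2-D neurons and 23.8 to 97.8 CPM in fused organoid neurons (fell by 3.73, SE 0.17, edgeR adjusted p = 6.63e-14). NR3C2, the mineralocorticoid receptor, fell by 4.25 ± 0.24 and HK2, a hexokinase, by 2.84 ± 0.19. The orphan receptor GPR139 fell by 4.54 ± 0.23. The rule took SEMA3C in glutamatergic neurons only, and HK2 was named from the hypoxia and glycolysis list. The rule's largest falls in neuron-gated cells were those of LINC02211, SLC6A5 and LSP1P4. Tags of the glutamatergic fit held as few as 186319 counts and 20 cells (fused organoid AcCoc replicate 2), so low levels there rest on few counts. In glutamatergic neurons KLHL14 (10.7 to 50.3 CPM against 0 to 3.49 CPM), the cadherin CDH7 (37.6 to 190 CPM against 4.96 to 22.8 CPM) and the WNT receptor FZD7 (7.81 to 47.7 CPM against 0 to 4.97 CPM) rose with no overlap, and SEMA3C (5.64 to 59.3 CPM against 573 to 1377 CPM) and HK2 (2.10 to 10.7 CPM against 42.2 to 87.5 CPM) fell.

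Receptor subunits were counted in each set of cells. Over all cells 3 of 24 glutamate receptor genes rose and 10 fell (1 and 9 with the tag number as a block in limma, 6 and 3 in Vehic tags alone and 0 and 4 in AcCoc tags alone), with the AMPA receptor subunit GRIA3 (88.5 to 233 CPM against 247 to 384 CPM, fell by 1.30, SE 0.17) and the kainate receptor subunit GRIK1 (fell by 1.01) lower in every tag. Of all genes, 3014 of 21408 rose and 3005 fell in Vehic tags alone, and 989 of 20606 rose and 1157 fell in AcCoc tags alone. In neuron-gated cells 2 of 24 glutamate receptor genes rose and 10 fell, and in cells with at most 1 neuron gate gene 4 of 23 rose and 10 fell. In glutamatergic neurons 8 of 22 rose and 5 fell, among them GRIA1 (1.21 ± 0.15), GRIN2B (0.88 ± 0.12) and the metabotropic receptor GRM7 (1.83 ± 0.41), while GRIA3 fell by 0.33 ± 0.12. Of the GABA and glycine receptor genes, 5 of 19 rose and 6 fell over all cells (3 and 6 with the tag number as a block in limma), 8 of 14 rose and 3 fell in glutamatergic neurons (GABRB2 by 1.09), and 0 of 17 rose and 11 fell in cells with at most 1 neuron gate gene. GABBR2, a GABA-B receptor subunit, was at 28.6 to 99.5 CPM in such cells of fused organoids and 145 to 252 CPM in those of 2-D co-cultures, whereas in glutamatergic neurons it was higher in fused organoids, at a mean of 194 against 140 CPM (0.43, edgeR adjusted p = 0.0309). Whether these cell sets differ from each other was not tested. The tag number was not tried as a block in glutamatergic neurons or in cells with at most 1 neuron gate gene. Among receptors for the drugs of the series, the mu opioid receptor OPRM1 rose (7.96 to 15.9 CPM against 2.39 to 7.48 CPM, 1.44 ± 0.15, edgeR adjusted p = 7.92e-08) and the kappa opioid receptor OPRK1 fell by 1.73 ± 0.25 from low levels, both without overlap. The dopamine receptors DRD2 (-0.19), DRD3 (0.34) and DRD4 (0.15) did not pass. Of 21 genes of synaptic vesicles and release 7 rose and 3 fell, among them VAMP2 (1.26, not called in AcMor tags alone) and SYN2 (-1.14).

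Of 26 hypoxia and glycolysis genes 7 rose and 7 fell. HK2 (8.15 to 17.1 CPM against 26.6 to 49.5 CPM, fell by 1.69, SE 0.13, edgeR adjusted p = 7.09e-10), PFKP (-1.21), PFKFB3 (-0.90) and the hypoxia target VEGFA (-1.57 ± 0.26) fell. The glucose transporter SLC2A3 (1.26 ± 0.13), TPI1 (1.28) and GAPDH (0.78, not called with counts summed by tag number, edgeR adjusted p = 0.0550) rose, and LDHA (-0.38), PGK1 (0.00) and the hypoxia target CA9 (-0.13) did not pass.

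Cell cycle genes rose in 6 of 20 cases over all cells, against 26.1% of all genes. The number was 2 with the tag number as a block (limma) and 1 with counts summed by tag number. In cells with at most 1 neuron gate gene 13 of 20 rose, against 23.7% of all genes there, and 0 fell there or over all cells. Pluripotency genes were low in both arrangements and 4 of 7 fell, DPPA4 by 3.24 (0 to 0.409 CPM against 0.521 to 3.61 CPM). The other lists, given as numbers higher and lower of those tested, were radial glia and progenitors (7 and 3 of 17), choroid plexus (2 and 5 of 11), motile cilium (3 and 5 of 17), mesenchyme and fibroblast (6 and 4 of 16), neural crest and Schwann (4 and 2 of 11), endothelial (3 and 0 of 10), microglia and macrophage (1 and 1 of 3), epithelial (2 and 0 of 6), retina and pigment cells (1 and 2 of 8), skeletal and smooth muscle (4 and 2 of 10), medial ganglionic eminence (2 and 1 of 6), striatal projection neurons (5 and 1 of 10), cholesterol synthesis (4 and 6 of 22) and interferon and antigen presentation (2 and 3 of 15). With the tag number as a block in limma, the numbers moved to 4 and 3 for radial glia and progenitors, 1 and 0 for endothelial genes, 4 and 5 for mesenchyme and fibroblast and 3 and 3 for muscle, and with counts summed by tag number to 0 and 5 for motile cilium and 2 and 3 for cholesterol synthesis. In Vehic tags alone cholesterol synthesis had 6 higher and 1 lower. The summed level of the muscle genes was 52.1 to 2234 CPM in fused organoids and 62.0 to 93.6 CPM in 2-D co-cultures, with the titin gene TTN at 1694 CPM in AcCoc replicate 2. TTN had a log2 fold change of 2.21, which was 0.87 without that tag and 1.20 with the tag number as a block (limma adjusted p = 0.111).

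Whether the arrangement difference depends on treatment was tested by the interaction term. No gene of 22511 passed in edgeR (0 called, 0%; 918 at an unadjusted p under 0.05), and DESeq2 called 10. Tested within Vehic, AcCoc and AcMor tags alone, 6019, 2146 and 4159 genes were called. Of the 114 genes named here and called over all tags, 15 kept their sign but lost the call in Vehic tags alone. Another 2, PAX2 and SLC17A6, changed sign there. The call was lost for 33 in AcCoc tags alone and 9 in AcMor tags alone, counting genes that could be tested there. Fewer tags were compared within a treatment. The neuron-gated share was 41.0%, 42.1% and 41.6% in Vehic, AcCoc and AcMor tags of fused organoids and 19.2%, 44.2% and 41.2% in those of 2-D co-cultures. A permutation test that shuffled tags across treatments within each arrangement did not pass (100000 resamples, p = 0.0662, adjusted p = 0.498). Its null is no effect of treatment in either arrangement, and a treatment effect within 2-D tags widens that null. It therefore cannot decide whether the difference in this share depends on treatment.

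**Figure D5:**
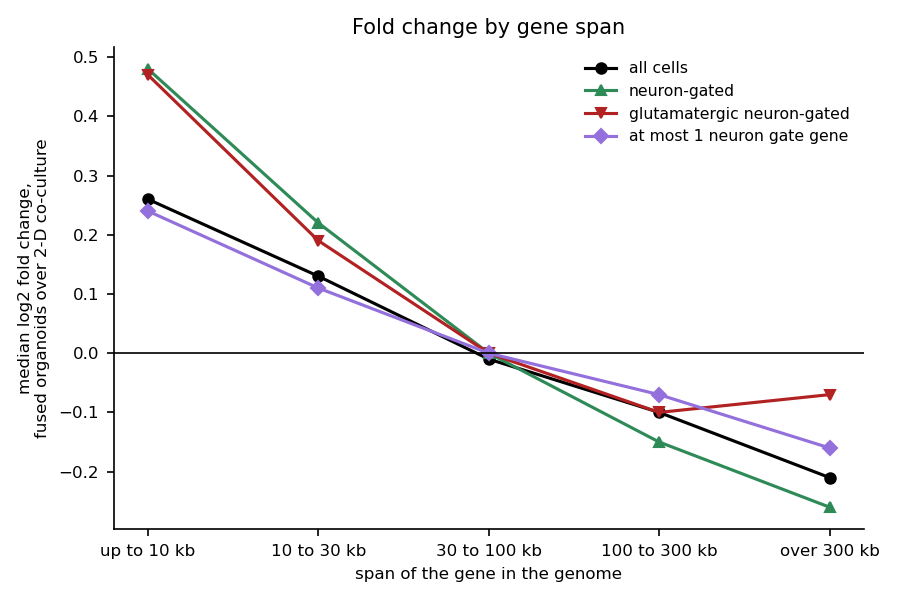
Median log2 fold change (fused organoids over 2-D co-cultures) of tested genes by the span of the gene in the genome, in 5 bins from up to 10 kb to over 300 kb, for 4 sets of cells. The median falls from 0.26 to -0.21 over all cells and from 0.48 to -0.26 in neuron-gated cells.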

How the data were processed

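Gene counts of 43693 cells and 60286 genes were analysed as the authors deposited them in 1 matrix. They are expected counts, estimated by the authors' pipeline and not always whole (55.5% of entries are), and the submitters' processing notes name Salmon 1.7.0, alevin, Seurat 4.1.1 and build hg38 without their roles. How cells were filtered or doublets removed is not stated there, and no doublet caller was run. 0 columns belonged to no sample. The cell names, used for tag, sublibrary and barcode, are text.

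Cells were assigned to culture tags by name. The 8 sample records are sublibraries, each holding cells of all 22 tags compared here, so tags and not samples served as replicates. Counts were summed per tag and rounded, filtered with filterByExpr, scaled by TMM and tested with edgeR 4.0.16 (robust quasi-likelihood, R 4.3.3), with treatment as a covariate and a threshold of 0.05 on the adjusted p over all genes tested. Printed CPM are counts per 1000000 of the tag total, without TMM. Gated fits left out the gate genes and tags with under 20 cells, which removed 1 tag, the 2-D co-culture Vehic replicate 3, from the glutamatergic fit. A gate needed a count of at least 0.5 in at least 3 of 8 genes after thinning to 3000 counts. The neuron-gated fits used cells of no other gate. Transporter and inhibitory marker counts for the glutamatergic fit were taken without thinning. Shares were compared by an exact permutation test within treatments (smallest p 1.166e-05). DESeq2 1.42.0 and limma 3.58.1 served as alternatives. Python 3.11.15, numpy 2.4.6, scipy 1.17.1, pandas 2.3.3 and matplotlib 3.10.9 were also used. Of the tests, the edgeR fit of arrangement alone was run on simulated counts, with independent tags and few changed genes. The permutation, interaction, DESeq2 and limma tests were not simulated.

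Same-numbered tags of the fused organoids deviated together in all 9 pairs (r 0.144 to 0.577), so the number was tried as a block. The 12 pairs within 2-D co-cultures (r -0.251 to 0.104, 1 over 0.1) and the 30 pairs across arrangements (r -0.346 to 0.227, 4 over 0.1) did not. The block was run over all cells, in neuron-gated cells and for the interaction. It was not run in glutamatergic neurons or in cells with at most 1 neuron gate gene.

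The members, gene lists and tests were chosen with earlier results of these data known. Genes were named by a rule. It took the 12 largest rises and falls among called genes with a symbol, at least 20 CPM and tags that did not overlap. It also took the most changed and most abundant members of each list. The 4 lowest interaction p-values were taken among genes with at least 20 CPM in some group. In each neuron fit the 8 largest rises and falls were taken under the same limits as the first 12. Further list members and other genes in the text were named after their values had been seen. Some genes are not reported here.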

Additional observations from a re-analysis of the deposited data

Results flagged for a closer look

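In groups of 4 to 10 tags, a tag was picked out where its distance to the nearest other tag was a large part of the group's range (Dixon's test at its 95% critical value). Of 197 groups tested 20 met this rule, and chance alone gives about 1 in 20. AcCoc replicate 3 of the fused organoids was picked out for its mesenchymal share (41.1%, others 4.15% to 21.1%), SFRP2 (21.7 CPM, others 2.23 to 8.40), PDGFRA (78.6 CPM, others 17.0 to 47.8), FOS (275 CPM, others 90.9 to 180), CCN1 (47.8 CPM, others 11.8 to 28.8), HSP90B1 (524 CPM, others 154 to 338) and NR3C2 (108 CPM, others 35.0 to 59.3). AcCoc replicate 2 was picked out for the muscle gene TTN (1694 CPM, others 30.6 to 221), CDON (233 CPM, others 68.3 to 147), PTCH1 (253 CPM, others 134 to 191), GAD1 (195 CPM, others 16.8 to 109) and DRD3 (3.13 CPM, others 0.613 to 1.94). AcCoc replicate 4 had the highest EGR3 (37.6 CPM, others 9.21 to 20.1), DUSP1 (10.9 CPM, others 2.70 to 6.99) and NEFM (61.9 CPM, others 7.71 to 31.6). PAX2 was high in Vehic replicate 1 (59.6 CPM, others 1.12 to 31.7) and SLC6A5 in Vehic replicate 4 (6.77 CPM, others 0.281 to 2.01). Within the 2-D co-cultures, Vehic replicate 1 had the lowest mesenchymal share of its 4 tags (5.09%, others 9.56% to 10.2%), AcCoc replicate 3 the only choroid plexus cell (0.116%) and AcMor replicate 2 the highest median mitochondrial share of its treatment (3.48%, others 2.68% to 2.80%).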

How the results depend on the processing

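Over all cells the number of called genes was 7517 to 12521 under DESeq2, RLE or library-size scaling, no filter on low counts, the replicate block and counts summed by tag number, against 10987, and 10419 to 11355 when each tag was left out in turn. It was 6019 in Vehic, 2146 in AcCoc and 4159 in AcMor tags alone, where fewer tags were compared. In neuron-gated cells (7954) these treatments gave 3440, 2080 and 3097, a gate of 5 genes gave 4186 of 11503 genes tested, and the other settings 6241 to 9178. In glutamatergic neurons (3541) the range was 3229 to 4624. With library size alone 66.2% of the calls in neuron-gated cells were higher, against 54.5%. The interaction gave 0 genes without a filter and with the replicate block, 10 in DESeq2 and 0 to 6 with 1 tag left out, 6 without Vehic replicate 3 and 3 without Vehic replicate 4 of the fused organoids, and the cause was not tested.

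With the replicate block (limma with duplicateCorrelation, estimated correlation 0.192), 9176 genes were called over all cells, and 10620 with the number crossed with arrangement. Of the 114 genes named in the text and called, 4 lost the call with the estimated correlation (GRIA1, LAMA4, TH and TTN) and 7 with counts summed by number (CALR, CANX, CDON, GAPDH, GRIA1, LAMA4 and SHH). No other named gene that could be tested changed its call under these settings. Of the 10 fused organoid tags, 6 correlated best with a tag of their own number. With fused organoid tags averaged by number, the calls on shares were the same, the mesenchymal difference being 7.21 and the motile cilium one -4.65 percentage points.

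Shares are given as fused organoids minus 2-D co-cultures in percentage points. The mesenchymal difference (8.66) was 6.36 without thinning and 4.66 at 2 genes, neither called. The choroid plexus difference (0.225) was 0.314 at 2 genes and 0.0371 at 4, and the motile cilium one (-4.36) -0.412 at 4 genes, none called. The astrocyte difference (-3.48) reversed to 0.229 without GFAP and ALDH1L1, and was not called. Leaving out each tag moved the neuron difference from 4.55 to 8.67, called only without AcCoc replicate 3 of the fused organoids. Within 1 treatment the smallest p the exact test can give is 0.0286, and no share was called (lowest adjusted p 0.0762). In Vehic tags the differences were 21.8 (neuron), -0.968 (cycling, reversed), 6.44 (mesenchymal), -4.20 (astrocyte), 0.245 (choroid plexus), -6.39 (motile cilium), -3.64 (glutamatergic) and 18.2 (inhibitory). In AcCoc tags they were -2.17 (neuron, reversed), 3.16, 15.1, -3.63, 0.404, -2.39, -8.32 and 16.9 in the same order, and in AcMor tags 0.350, 4.54, 4.43, -2.60, 0.0257, -4.31, -8.48 and 30.5.

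Among named genes, PAX2 (0.068 in Vehic tags alone, 1.08 in cells with at most 1 neuron gate gene), SLC17A6 (0.20 in Vehic tags alone), GRIA1 (-0.24) and RBFOX3 (0.41), the last 2 in cells with at most 1 neuron gate gene, changed sign on the log2 scale. The cause was not tested. Of the 37 gene lists 24 had a median above 0, and 19 to 29 under the alternatives. Genes below the count filter, such as AQP4, were not tested, and cell classes of a few cells, such as choroid plexus, rest on few counts. The part of depth in this was not tested.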

Other observations

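A set of genes was lower in fused organoids in both neuron-gated and other cells, and was looked at after its values had been seen. Of 16578 genes tested both in neuron-gated cells and in cells with at most 1 neuron gate gene, 4 rose past a log2 fold change of 3 in both without overlap of tags (DLX1, DLX2, DLX5 and IGF2) and 23 fell past -3 in both. IGF2, an insulin-like growth factor, had means of 59.1 and 5.68 CPM in neurons (3.29 on the log2 scale) and 1017 and 102 CPM in the other cells (3.33). Over all cells it was at 155 to 1288 CPM in fused organoids and 2.01 to 3676 CPM in the 12 other 3-D tags of the series.

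Of the 23 genes that fell, 21 had a position in the GENCODE annotation (GRCh38), and 12 of these lay within 1000000 bases of another. They included the long noncoding RNAs LINC02228 (chr5:25087450-25190956, minus strand) and LINC02211 (chr5:25187800-25324386, plus strand), the organic anion transporter genes SLCO4C1 (chr5:102233986-102296549, minus strand) and SLCO6A1 (chr5:102371782-102499016, minus strand) with LINC00492 and LINC00491 beside them, and the zinc-finger genes ZNF736 and ZNF680 on chromosome 7 and ZNF248 and ZNF37A on chromosome 10. LINC02228 overlaps LINC02211, and LINC00492 overlaps LINC00491, on opposite strands, so each pair may share reads if strand was not used. How often genes of other sets lie this close was not tested. LINC02211 had means of 96.8 and 1.01 CPM in neurons of 2-D co-cultures and fused organoids, and 116 and 0.986 CPM in the other cells. For 11 of the 23 genes, among them LINC02211, LINC02228, LINC00491, LINC00492, SLCO6A1, MTNR1B and SLFN11, every 2-D co-culture tag was above every other tag of the series, including the 12 other 2-D tags. For 4, among them LSP1P4 and ZNF37A, every 2-D tag was above every 3-D tag.

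FOS, over all cells, was at 11.8 to 47.0 CPM in the 12 other 2-D tags and 51.9 to 163 CPM in the 12 other 3-D tags. GFAP was at 0.778 to 83.5 CPM in the other 2-D tags and 2.36 to 6.31 CPM in the other 3-D tags.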
